A study of Mus musculus with 6 samples.

Results

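Complex I of the mitochondrial respiratory chain is built from subunits encoded in the nucleus and in the mitochondrial genome, and the nuclear-encoded subunit genes are described here in mouse visual cortex. They were taken as the protein-coding entries of the deposited expression table whose symbols begin with Ndufa, Ndufab, Ndufb, Ndufc, Ndufs or Ndufv followed by a number alone. The rule gave 37 genes of the 54532 entries, and all 37 passed the filter on low values. Total RNA of the V1 area of female C57BL mice aged 9 weeks was sequenced after an injection of adeno-associated virus into V1, with 2 libraries in each of 3 groups. The groups were shCSB/shNDN (short hairpins against CSB and against NDN), shCSB (the hairpin against CSB) and shControl (a control hairpin), and every group, the controls included, carried a hairpin virus. CSB is the protein of Ercc6, one of the genes mutated in Cockayne syndrome, and NDN is necdin. Per the series text each genotype had 2 female mice, so the libraries were taken as separate animals, and the promoter of the vectors, the dose and the time from injection to dissection are not given in the sources used here.

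Complex I takes electrons from NADH, passes them along a flavin and a chain of iron-sulfur clusters to ubiquinone, and uses the energy to pump protons across the inner mitochondrial membrane. The enzyme is L-shaped: an N module that oxidises NADH and a Q module that reduces ubiquinone form the arm in the matrix, and a proximal and a distal part form the arm in the membrane. Core subunits are conserved from bacteria and do the chemistry, and accessory subunits surround and stabilise them. Neurons of the cortex depend heavily on oxidative phosphorylation, and mutations in several of these genes cause Leigh syndrome and related encephalopathies.

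Between 15731788 and 17365285 reads per library could be recovered from the deposited FPKM values (fragments scaled to gene length and to library size), and 3 reads correspond to between 0.169 and 0.201 FPKM for a gene of 1 kb. Ercc6, the target of the CSB hairpin, had 1.61 and 1.81 FPKM in the libraries labelled shCSB/shNDN, 1.29 and 1.61 FPKM in those labelled shCSB and 1.46 and 1.22 FPKM in shControl, with replicate 1 first in every pair of values here. Its RNA was thus not lower in the libraries labelled with the CSB hairpin, and the group names below are those of the labels. Ndn, the target of the second hairpin, had 16.8 and 41.0 FPKM in shCSB/shNDN, 47.9 and 38.1 FPKM in shCSB and 56.1 and 49.8 FPKM in shControl. Both Ndn values of shCSB/shNDN lay below both controls, but that of library 2 lay above library 2 of shCSB. Library 2 of shCSB/shNDN stood apart from the rest: 1.41% of its reads came from mitochondrially encoded genes, where the remaining 5 had 4.95% to 7.65%, and single-read genes numbered 435 in it and 1597 to 1839 elsewhere. Results are therefore given library by library, and with and without that library where they rest on it.

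Markers of cortical cell types were followed in each library. The lists are of cell types and not of cortical areas, so the V1 label itself was not tested. No marker was at 0 in any library. Summed FPKM of 5 excitatory neuron markers was 759 and 515 in shCSB/shNDN, 795 and 796 in shCSB and 875 and 978 in shControl. Slc17a7 (313 and 206 FPKM) and Camk2a (399.6 and 246 FPKM) made up most of the shCSB/shNDN sums. Of the 5 markers, 3 did not overlap between shCSB/shNDN and shControl, all lower (23.7% of all genes). Camk2a and Tbr1 overlapped. Tbr1 was high in library 2, with 22.2 and 37.99 FPKM in shCSB/shNDN against 23.9 and 27.6 FPKM in shControl. Summed FPKM of 8 microglia markers was 2245 and 594 in shCSB/shNDN, 264 and 308 in shCSB and 215 and 209 in shControl, and 7 of the 8 did not overlap between shCSB/shNDN and shControl, all higher, where 20.7% of all genes did so. Other marker lists were summed as well, and single genes weigh heavily in some sums. Pan-neuronal markers summed to 519 and 467 FPKM in shCSB/shNDN, 650 and 611 FPKM in shCSB and 616 and 739 FPKM in shControl. All 5 of their changes between shCSB/shNDN and shControl were below 0, where 51% of all genes were. Oligodendrocyte markers summed to 974 and 753 FPKM, 720 and 949 FPKM, and 988 and 1010 FPKM in the same groups, with a median change of -0.05. Inhibitory neuron markers summed to 411 and 1127 FPKM in shCSB/shNDN, 791 and 590 FPKM in shCSB and 837 and 677 FPKM in shControl. Sst (280 and 798 FPKM) and Pvalb (69.0 and 246 FPKM) made up most of the shCSB/shNDN sums, low in library 1 and high in library 2. Gad1 followed them, with 24.3 and 42.7 FPKM against 29.8 and 35.7 FPKM in shControl. Slc32a1 was low in both, with 28.1 and 29.2 FPKM against 40.7 and 42.7 FPKM, and Gad2 had 9.79 and 11.2 FPKM against 12.6 and 10.9 FPKM. Astrocyte markers summed to 453 and 219 FPKM in shCSB/shNDN, against 115 to 143 FPKM in the shCSB and shControl libraries. Most of that rise was Gfap, with 372 and 152 FPKM in shCSB/shNDN and 52.2 and 48.4 FPKM in shControl. Of the 5 astrocyte markers only Gfap did not overlap with shControl, and their median change was 0.09. Endothelial markers summed to 68.1 and 145 FPKM in shCSB/shNDN, against 72.7 to 78.1 FPKM. Cldn5 alone had 133 FPKM in library 2, and 3 of the 4 did not overlap with shControl, all higher (20.7% of all genes). Markers of meninges and fibroblasts summed to 10.5 and 10.3 FPKM in shCSB/shNDN, 11.9 and 10.5 FPKM in shCSB and 5.23 and 3.74 FPKM in shControl. In bulk tissue, fewer cells of a type and less RNA per cell cannot be told apart, and the part of the cell makeup in the results below was not tested.

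The subunit genes were abundant in V1. Over the 6 libraries, 13 of the 37 averaged above 100 FPKM, 22 lay between 10 and 100 FPKM and 2 lay under 10 FPKM. Ndufa2, an accessory subunit of the N module, had the highest mean level at 189 FPKM, followed by Ndufa4 at 166 FPKM, Ndufa8 at 147 FPKM, Ndufb11 at 143 FPKM and Ndufs5 at 126 FPKM. Ndufa4 carries a complex I name but was assigned to cytochrome c oxidase in later structural work, and it is kept here because the rule gives it. The lowest were Ndufb2 and Ndufab1, Ndufab1 being the mitochondrial acyl carrier protein, which also serves fatty acid synthesis. Both rank low on the scale of the table partly by construction, because the gene lengths of the table count every exon of a gene: 5628 bases for Ndufb2 and 6883 bases for Ndufab1, against principal transcripts of 455 and 1416 bases. Per principal transcript their mean levels were 47.1 and 30.4 FPKM, and Ndufa4 came first with 506 FPKM. The gene length of the table was more than 3 times the principal transcript in 10 members, so the order of levels between members depends on the length used, while comparisons of 1 gene between libraries do not. The fewest reads of any member in a library were 264, for Ndufb2.

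**Figure D1:**
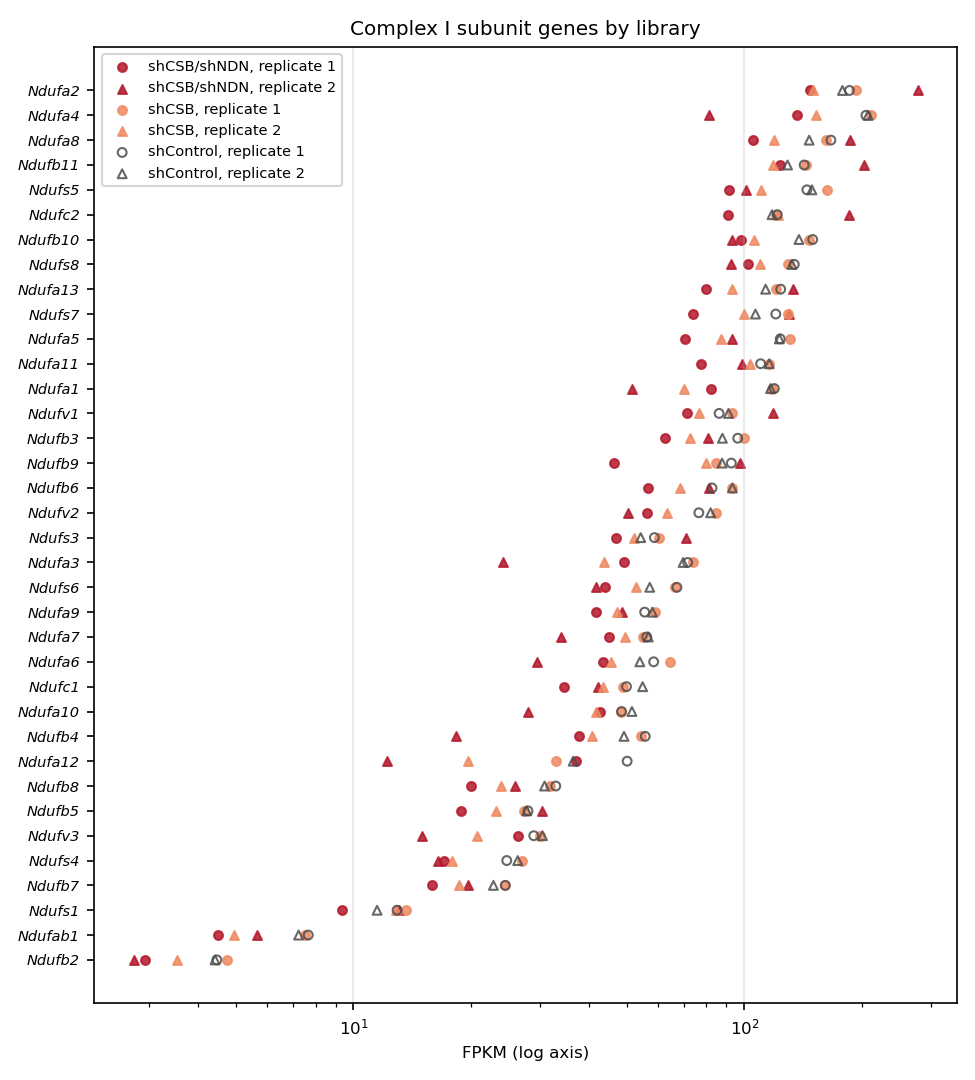
FPKM of 36 of the 37 nuclear-encoded complex I subunit genes in each of the 6 libraries (horizontal log axis), with the genes ordered by their mean over the libraries and 1 point per library. The 2 shControl points of a gene lie close together, and the points of shCSB/shNDN library 2 lie to the left of the others for some genes (Ndufa12, Ndufa3, Ndufb4) and to the right for others (Ndufc2, Ndufa2, Ndufb11).

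Taken as a sum, the 37 genes had 2217 and 2753 FPKM in shCSB/shNDN, 3202 and 2477 FPKM in shCSB and 3152 and 3060 FPKM in shControl. As a share of the shControl mean, these sums were 71.4% and 88.6% in shCSB/shNDN and 103% and 79.8% in shCSB. The shCSB group thus held 1 library at the level of the controls and 1 below it, and both shCSB/shNDN libraries lay below both controls. For the summed FPKM of all genes tested, the same shares were 89.8% and 84.6% in shCSB/shNDN and 91.7% and 93.4% in shCSB. In shCSB/shNDN library 2 the share of the members was thus above that of all genes.

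The libraries differed from the controls in different ways, which the sums hide. On the log2(FPKM + 1) scale, each library was set against the mean of the shControl libraries, gene by gene. In shCSB/shNDN library 1, all 37 genes lay below that mean, with a median difference of -0.51 and a standard deviation over genes of 0.17. In shCSB/shNDN library 2, 26 lay below and 11 above, with a median of -0.31 and a standard deviation of 0.60, the differences running from -1.73 to 0.63. The first library is therefore shifted down for every subunit, by amounts that run from -0.94 to -0.13, and the second pulls the subunits farther apart. In shCSB library 1 the median was 0.05 with a standard deviation of 0.10, and in shCSB library 2 it was -0.29 with a standard deviation of 0.21 and 35 of 37 genes below 0. The shControl libraries lay 0.02 above and below their own mean at the median, with a standard deviation of 0.06.

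Over all 16254 genes tested, the medians of the same differences lay between -0.02 and 0.00 under the scaling of the deposited FPKM values. Under the other scalings the median change of all genes in the 3 comparisons ran from -0.09 to 0.09. The highest was that of limma-voom for shCSB/shNDN against shControl, and relative to all genes the members' median was -0.44 there and -0.44 under the scaling of the table. In the same comparison it was -0.33 with quantile normalization, where the members' median itself was -0.35. It was -0.47 with trimmed-mean scaling and -0.46 with mitochondrially encoded genes left out of the scaling. The standard deviation over all genes was 0.56 in shCSB/shNDN library 1 and 0.59 in library 2. The subunit genes were thus more alike than genes at large in library 1 (0.17 against 0.56) and as spread out as genes at large in library 2 (0.60 against 0.59). They were also more alike than genes at large in shCSB (0.10 against 0.30 and 0.21 against 0.35) and in shControl (0.06 against 0.16). The smaller spread is therefore not particular to library 1 of shCSB/shNDN. Complex II to V, the other enzymes of oxidative phosphorylation, gave a like pattern over their 39 nuclear-encoded subunit genes, with medians of -0.54 and -0.30 in shCSB/shNDN and -0.02 and -0.34 in shCSB and standard deviations of 0.18 and 0.74 in shCSB/shNDN and 0.08 and 0.14 in shCSB. The low median and the wide spread are therefore not particular to complex I.

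**Figure D2:**
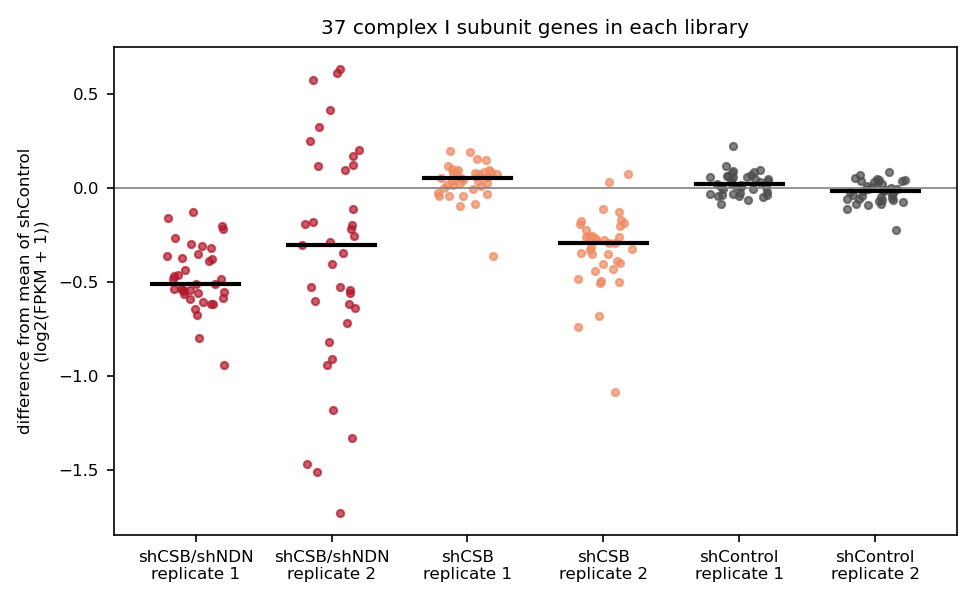
Difference of each gene from the mean of the shControl libraries (log2(FPKM + 1), vertical axis) in each library for the 37 complex I subunit genes, with 1 point per gene, spread sideways for legibility, and the median as a black bar. The points of shCSB/shNDN library 1 gather around a median of -0.51, and those of library 2 run from -1.73 to 0.63.

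Counted gene by gene, 36 of the 37 lay below both shControl libraries in shCSB/shNDN library 1 and 26 in library 2. Of all genes tested, 41.6% and 42.7% did so. None lay above both controls in library 1, and 11 did in library 2, where 37% and 41.2% of all genes did. The shCSB libraries had 8 and 35 genes below both controls (32.7% and 38% of all genes) and 16 and 1 above both (32.6% and 37.8%). Library 2 of shCSB/shNDN was the highest of the 6 libraries for 10 genes and the lowest for 15, and library 1 was the lowest for 21. Library 2 of shCSB was below library 1 for 36 of the 37 genes.

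Among the N module genes, which hold the NADH site, the core subunits took separate courses. Ndufv1, which carries the flavin and the NADH-binding site, had 71.3 and 118 FPKM in shCSB/shNDN, 93.2 and 76.8 FPKM in shCSB and 86.2 and 91.1 FPKM in shControl. Its 2 values in shCSB/shNDN lie on either side of the controls. Ndufv2, which carries an iron-sulfur cluster next to that site, had 56.3 and 50.5 FPKM in shCSB/shNDN, 84.8 and 63.5 FPKM in shCSB and 76.5 and 82.0 FPKM in shControl. Both shCSB/shNDN values of Ndufv2 were below all 4 others. Ndufs1, the largest subunit of the enzyme and a carrier of iron-sulfur clusters, had 9.34 and 13.1 FPKM in shCSB/shNDN, 13.7 and 12.9 FPKM in shCSB and 12.9 and 11.5 FPKM in shControl, and the groups overlapped.

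The accessory genes of the N module held both ends of the range. Ndufa12 sits where the N and Q modules meet and replaces an assembly factor late in assembly. It had 37.01 and 12.2 FPKM in shCSB/shNDN, 33.0 and 19.6 FPKM in shCSB and 50.1 and 36.5 FPKM in shControl. Both shCSB values lay below both controls, while shCSB/shNDN library 1 fell between the controls and library 2 was the lowest of all, and on the log2(FPKM + 1) scale the controls were farther apart than for any other member. At the other end, Ndufa2 had 148 and 278 FPKM in shCSB/shNDN, 193 and 149.9 FPKM in shCSB and 186 and 178 FPKM in shControl. Here the shCSB/shNDN libraries enclosed all other values. Ndufs4, whose deletion in mice gives a Leigh-like encephalopathy, had 17.1 and 16.5 FPKM in shCSB/shNDN, 27.0 and 17.9 FPKM in shCSB and 24.7 and 26.3 FPKM in shControl. Ndufs6, which binds zinc, had 44.1 and 41.7 FPKM in shCSB/shNDN, 66.3 and 52.9 FPKM in shCSB and 67.2 and 57.3 FPKM in shControl. In both genes the shCSB/shNDN libraries were close to each other and below the other 4. Ndufa6, a member of the LYR motif family, had 43.6 and 29.5 FPKM in shCSB/shNDN, 64.7 and 45.7 FPKM in shCSB and 58.6 and 54.0 FPKM in shControl, so the shCSB/shNDN pair was again the lowest. Ndufv3 and Ndufa7, the remaining accessory genes of the module, had their lowest value in shCSB/shNDN library 2, at 14.9 and 34.0 FPKM.

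In the Q module, Ndufs7 lies at the ubiquinone site. It had 74.0 and 130.4 FPKM in shCSB/shNDN, 129 and 99.98 FPKM in shCSB and 120.4 and 107 FPKM in shControl, with the shCSB/shNDN libraries at both extremes. Ndufs8, which carries iron-sulfur clusters towards the ubiquinone site, had 102 and 92.3 FPKM in shCSB/shNDN, 129 and 109.7 FPKM in shCSB and 134 and 132 FPKM in shControl. Its groups lay in order with no overlap, shCSB/shNDN lowest and shControl highest. Ndufs3, an early piece of the assembling enzyme, had 46.9 and 71.0 FPKM in shCSB/shNDN, 60.5 and 52.2 FPKM in shCSB and 58.9 and 54.3 FPKM in shControl, so that again the shCSB/shNDN libraries enclosed the rest. The accessory genes Ndufa5 and Ndufa9 had 70.3 and 41.8 FPKM in shCSB/shNDN library 1, the lowest of the 6 libraries for each gene.

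Accessory genes of the proximal membrane arm lay far apart in shCSB/shNDN library 2. Ndufa3 is a small subunit with a single membrane helix. It had 49.2 and 24.2 FPKM in shCSB/shNDN, 73.7 and 43.7 FPKM in shCSB and 71.6 and 69.7 FPKM in shControl. Ndufa1, also a small membrane subunit and encoded on the X chromosome, had 82.4 and 51.5 FPKM in shCSB/shNDN, 118 and 70.3 FPKM in shCSB and 119 and 117 FPKM in shControl. In both genes library 2 of shCSB/shNDN was lowest, and in both library 2 of shCSB lay below library 1 of shCSB/shNDN, so these 2 groups overlapped. Ndufc2 went the other way in library 2: it had 91.0 and 186 FPKM in shCSB/shNDN, 120.2 and 122 FPKM in shCSB and 121 and 118 FPKM in shControl. The 4 shCSB and shControl values of Ndufc2 lay within a few FPKM of each other, and the shCSB/shNDN libraries lay far below and far above them. Ndufa8 and Ndufa13 likewise had their lowest value in library 1 and their highest in library 2 of shCSB/shNDN, with 105 and 186 FPKM for Ndufa8 and 79.6 and 133 FPKM for Ndufa13 in shCSB/shNDN. Ndufs5, an intermembrane-space subunit, had 91.3 and 101 FPKM in shCSB/shNDN, 162 and 110.4 FPKM in shCSB and 145 and 149 FPKM in shControl, and its shCSB/shNDN values were the 2 lowest.

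Ratios of gene pairs within a library do not depend on the scaling between libraries, and they show the same separation. Ndufc2 over Ndufa1, both of the proximal arm, gave 1.10 and 3.61 in shCSB/shNDN, 1.02 and 1.73 in shCSB and 1.02 and 1.01 in shControl. Ndufa2 over Ndufa4, the 2 genes with the highest mean FPKM, gave 1.08 and 3.42 in shCSB/shNDN, 0.913 and 0.983 in shCSB and 0.908 and 0.861 in shControl. Both ratios were highest in shCSB/shNDN library 2, and the first was next highest in shCSB library 2. These pairs were chosen after their values were seen, so the ratios are a description.

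In the distal membrane arm, Ndufb4 had 37.7 and 18.3 FPKM in shCSB/shNDN, 54.4 and 40.8 FPKM in shCSB and 55.8 and 49.2 FPKM in shControl. Ndufb2 had 2.94 and 2.74 FPKM in shCSB/shNDN, 4.74 and 3.54 FPKM in shCSB and 4.47 and 4.43 FPKM in shControl, and Ndufb10, a twin-cysteine subunit of the intermembrane face, had 97.8 and 93.2 FPKM in shCSB/shNDN, 146 and 106 FPKM in shCSB and 149.6 and 138 FPKM in shControl. In all of these the 2 shCSB/shNDN libraries were the lowest of the 6, and for Ndufb2 and Ndufb10 they were close to each other. Ndufb11, encoded on the X chromosome, had 124 and 202 FPKM in shCSB/shNDN, 144 and 118 FPKM in shCSB and 142 and 129 FPKM in shControl, with library 2 of shCSB/shNDN far above the rest. Ndufb9 had 46.4 and 97.6 FPKM in shCSB/shNDN, 84.8 and 79.8 FPKM in shCSB and 92.6 and 87.7 FPKM in shControl. On the log2(FPKM + 1) scale, library 1 of shCSB/shNDN lay farther below the mean of the controls for Ndufb9 than for any other member, while library 2 lay above them. Ndufab1 had 4.50 and 5.65 FPKM in shCSB/shNDN, 7.54 and 4.96 FPKM in shCSB and 7.66 and 7.24 FPKM in shControl. Outside the complex I structure, Ndufa4 had 136 and 81.1 FPKM in shCSB/shNDN, 211 and 152 FPKM in shCSB and 205 and 207 FPKM in shControl, the shCSB/shNDN libraries being the 2 lowest.

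**Figure D3:**
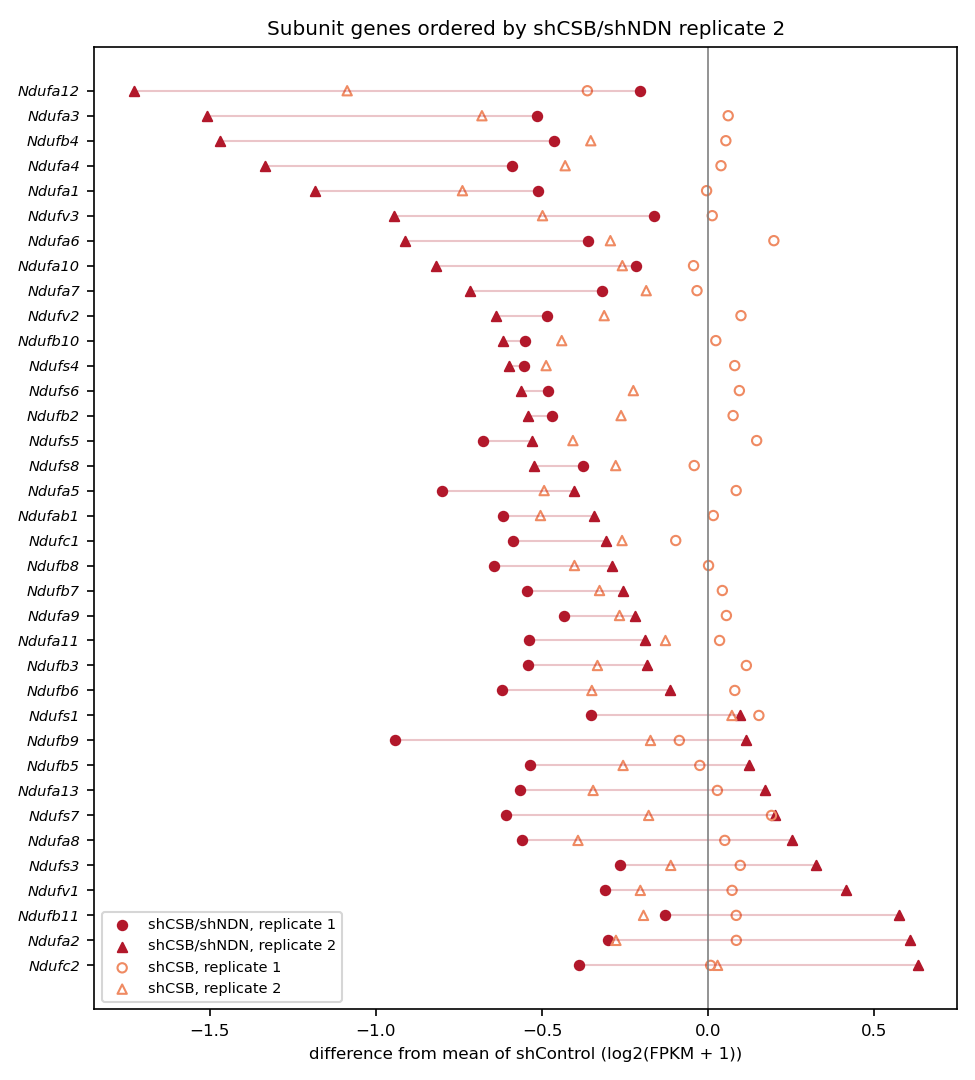
Difference of 36 of the 37 subunit genes from the mean of shControl (log2(FPKM + 1), horizontal axis) in shCSB/shNDN and in shCSB, with the genes ordered by shCSB/shNDN library 2 and a line joining the shCSB/shNDN libraries of a gene. Library 2 runs from -1.73 for Ndufa12 to 0.63 for Ndufc2, and library 1 stays below 0 for every gene drawn.

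The comparison of shCSB/shNDN with shControl sets the libraries labelled with 2 hairpins beside the controls. No member passed an adjusted p of 0.05 (limma, Benjamini-Hochberg adjustment over all genes tested), beside 0.00615% of all genes, which is 1 gene. The median log2 change of the members was -0.45, against -0.01 over all genes, and 32 of the 37 changes were below 0, against 51% of all genes. In 25 members both shCSB/shNDN libraries lay below both shControl libraries, where 23.7% of all genes tested did so, and in 0 members they lay above both, where 20.7% of all genes did. An unadjusted p under 0.05 with a lower level was reached by 13 members, where 6.71% of all genes reached it, but by 3 with quantile normalization, by 19 with trimmed-mean scaling, by 7 with limma-voom and by none (0) without either of the shControl libraries. With a higher level 0 members reached it, where again 6.71% of all genes did. Limma-voom on the recovered reads also called 0 members in each of the 3 comparisons. Without shCSB/shNDN library 1, with that group left with 1 library assumed to vary like the others, 6 members passed, all lower and all among the lower end of library 2: Ndufb4, Ndufa4, Ndufa12, Ndufa3, Ndufa10 and Ndufa7, with adjusted p between 0.0187 and 0.0389, in a fit where 11.1% of all genes passed. Without library 2, Ndufb9 passed at an adjusted p of 0.0279, where 3.86% of all genes passed, and none of these 6 did, and the median was -0.51, against -0.31 without library 1.

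The members with the smallest p values in that comparison were Ndufa4, Ndufb2, Ndufb4, Ndufv2 and Ndufs6, all lower. Ndufa4 differed by -0.96 ± 0.30 (SE, n = 2 against 2 libraries) with an adjusted p of 0.305 in limma. Ndufb2 differed by -0.51 ± 0.18 and Ndufb4 by -0.97 ± 0.34, with adjusted p of 0.322 and 0.328 in limma. For Ndufv2 the change was -0.56 ± 0.20, and for Ndufs6 it was -0.52 ± 0.19. On the higher side were 5 members, none with groups apart: Ndufb11 at 0.22 ± 0.28, Ndufa2 at 0.15 ± 0.33, Ndufc2 at 0.12 ± 0.33, and Ndufv1 at 0.05 ± 0.27 and Ndufs3 at 0.03 ± 0.24, which were -0.053 and -0.076 with trimmed-mean scaling. In all 5 the libraries of shCSB/shNDN lie on opposite sides of the controls, and the standard errors are larger than the changes.

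By place in the enzyme, the median change of shCSB/shNDN against shControl was -0.54 over the 10 genes of the N module, -0.31 over the 6 of the Q module, -0.45 over the 9 of the proximal arm and -0.41 over the 11 of the distal arm. Between 0 (Q module) and 5 (N module) of these were lower at an unadjusted p under 0.05, where 6.71% of all genes were. In each of these parts 0 were higher at that p, where also 6.71% of all genes were. The 7 core subunits had a median of -0.20, with Ndufv2 the 1 core gene at an unadjusted p under 0.05, and Ndufs8 at -0.45 ± 0.19 (adjusted p = 0.374 in limma) next. Set against the controls by library, the core genes had a median of -0.37 in shCSB/shNDN library 1 and 0.09 in library 2, where 4 of 7 were above 0. The N module had -0.34 and -0.62 in the same libraries, so the order of these groups of genes differs between the 2 animals and was not tested.

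Set against shCSB, the libraries labelled with the CSB hairpin alone, shCSB/shNDN again had 0 members past an adjusted p of 0.05, as did 0% of all genes. The median change was -0.27, against -0.01 over all genes, with 31 of 37 below 0, where 51.1% of all genes were. In 13 members the shCSB/shNDN libraries were both below both shCSB libraries (18.4% of all genes), and in 0 they were both above (16.5% of all genes). The 1 member with an unadjusted p under 0.05 was Ndufa4 at -0.77 ± 0.30 with an adjusted p of 0.585 in limma, where 3.69% of all genes tested were lower at that p, and 0 members were higher at that p, where 4.74% of all genes were. After it came Ndufb4 at -0.82 ± 0.34, Ndufs6 at -0.46 ± 0.19, Ndufb2 at -0.41 ± 0.18 and Ndufa6 at -0.59 ± 0.26, each with the groups apart. This comparison rests on which library of each pair is used: without shCSB library 1 the median was -0.09, and without shCSB library 2 it was -0.47. It was -0.38 without shCSB/shNDN library 2 and -0.13 without shCSB/shNDN library 1. Without shCSB/shNDN library 1, which leaves that group with 1 library, Ndufb4 and Ndufa4 passed in limma at adjusted p of 0.0339 and 0.0482, where 5.49% of all genes passed, a share close to that of the members.

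Against shControl, shCSB had 0 members past an adjusted p of 0.05, as did 0% of all genes, and 0 members at an unadjusted p under 0.05, where 0.738% of all genes were lower and 1.21% higher at that p. The median change of the members was -0.14, against -0.00 over all genes, with 34 of 37 below 0, where 50.8% of all genes were, but 21 of 37 were below 0 after quantile normalization, which gave a median of -0.03. In 8 members the shCSB libraries lay both below both controls, where 18.1% of all genes did, and in 0 both above, where 18.3% did. The smallest unadjusted p was that of Ndufa12, at -0.72 ± 0.51 and an adjusted p of 1 in limma, followed by Ndufa1 at -0.37 ± 0.32. The core gene Ndufs8, at -0.16 ± 0.19, had both shCSB libraries below both controls. This difference is carried by library 2 of shCSB: without it the median was 0.05, and without library 1 it was -0.29. The comparisons share libraries, so their medians are given side by side and not as support for each other.

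The libraries with the number 2 were set against those with the number 1 within each group, a difference that uses no shared library. Over the 37 genes, this difference in shCSB/shNDN and that in shCSB had a Pearson r of 0.56 and a Spearman rho of 0.45, and without Ndufa12 the values were 0.48 and 0.40 over 36 genes. Over all 16254 genes tested r was -0.07, and over the 39 genes of complexes II to V it was 0.15. The pairings with shControl gave lower values over the 37 genes. For shCSB with shControl r was 0.19 and rho 0.07, and without Ndufa12 they were 0.0024 and 0.0051. For shCSB/shNDN with shControl r was 0.13 and rho -0.14, and without Ndufa12 they were -0.16 and -0.24. Library 2 of shCSB was below library 1 for 36 of the 37 genes, so the values describe how far a gene was lower there and not whether. Genes low in library 2 of shCSB/shNDN relative to library 1, such as Ndufa12, Ndufa3 and Ndufa1, tended to be lower by more in library 2 of shCSB. The points share their libraries and are not independent, so the values are a description across genes.

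Properties that the rule did not use were set beside the differences. In shCSB/shNDN library 2, the difference from shControl had r of 0.19 with the GC content of the principal transcript, 0.15 with its log2 length and 0.23 with the log2 mean FPKM over the 37 genes, and Spearman's rho was 0.20, 0.17 and 0.36 for the same properties. In shCSB/shNDN library 1 the highest was log2 transcript length, with r of 0.34 and rho of 0.32, and genes are not independent points. The members lie on 15 chromosomes, with 5 on chromosome 17 and 4 each on chromosomes 1 and 6. A near-identical copy (at least 90% identity over at least 50% of the transcript), all of them pseudogenes, was found for 10 members: Ndufa11, Ndufa4, Ndufa7, Ndufb11, Ndufb2, Ndufb7, Ndufc1, Ndufs3, Ndufs5 and Ndufs6. Reads of these genes may be split between the gene and its copy, so their values are uncertain, and their median difference in shCSB/shNDN library 2 was -0.42, against -0.29 for the 27 members without a copy. Exons of 14 members overlap those of a gene on the opposite strand, such as those of Ndufb6 with Smim27, those of Ndufa13 with Tssk6, 12.9% of the exon length of Ndufb11 with Rbm10 and 11.5% of that of Ndufa2 with Tmco6, and the strand setting of the counting is not given in the sources used here. Reads of these genes and of their antisense partners may therefore not be separated.

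Promoters are shown for 4 members, taken from RefSeq on GRCm38.p6 with 250 bases before and 50 from the annotated start: Ndufa12 and Ndufa3, the 2 genes lowest in shCSB/shNDN library 2, Ndufc2, the highest there, and Ndufs7, a core gene whose shCSB/shNDN values lie at both extremes. Capitals mark TATAAA (the TATA box), the letters CCAAT (the CCAAT box) and AAGATGGC (the core of the YY1 motif) wherever a search of both strands found them.
Ndufa12, chr10:94198785-94199084, plus strand: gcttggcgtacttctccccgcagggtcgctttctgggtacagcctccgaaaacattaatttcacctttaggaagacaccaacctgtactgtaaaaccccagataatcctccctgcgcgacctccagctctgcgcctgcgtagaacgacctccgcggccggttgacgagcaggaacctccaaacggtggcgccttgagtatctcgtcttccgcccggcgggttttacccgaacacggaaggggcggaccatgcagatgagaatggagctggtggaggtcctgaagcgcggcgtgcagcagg
Ndufa3, chr7:3617123-3617422, plus strand: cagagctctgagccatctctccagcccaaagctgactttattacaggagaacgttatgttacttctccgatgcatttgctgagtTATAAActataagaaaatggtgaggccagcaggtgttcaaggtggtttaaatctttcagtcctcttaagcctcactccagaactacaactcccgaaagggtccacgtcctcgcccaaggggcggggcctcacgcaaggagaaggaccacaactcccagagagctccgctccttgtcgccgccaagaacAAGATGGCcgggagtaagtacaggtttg
Ndufc2, chr7:97399753-97400052, plus strand: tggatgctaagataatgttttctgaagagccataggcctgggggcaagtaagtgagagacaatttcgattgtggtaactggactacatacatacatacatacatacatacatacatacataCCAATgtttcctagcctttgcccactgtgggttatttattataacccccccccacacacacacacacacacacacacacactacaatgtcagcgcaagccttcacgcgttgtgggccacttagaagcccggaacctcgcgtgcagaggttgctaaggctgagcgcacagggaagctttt
Ndufs7, chr10:80249199-80249498, plus strand: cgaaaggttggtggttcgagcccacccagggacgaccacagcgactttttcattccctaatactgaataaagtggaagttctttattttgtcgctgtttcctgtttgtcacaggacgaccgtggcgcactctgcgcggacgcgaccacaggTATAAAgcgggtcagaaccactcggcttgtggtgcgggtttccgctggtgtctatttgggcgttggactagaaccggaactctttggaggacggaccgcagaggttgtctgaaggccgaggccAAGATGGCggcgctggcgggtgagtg

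Ndufa12 holds none of these letters in its window, and Ndufa3 and Ndufs7, which differ in their shCSB/shNDN values, hold the same pair of motifs. Of the 37 members, 33 had a RefSeq window, with 35 windows in all. AAGATGGC was in 7 of the 35 windows, or 20%, against 2.75% of 32851 mouse windows of the same length, namely those of Ndufa3, Ndufa9, Ndufb8, Ndufc1, Ndufs4, Ndufs6 and Ndufs7. CCGGAAG, the ETS core bound by the GABP factors, was in 4 windows (11.4%, against 8.86%), TATAAA in 5 (14.3%, against 13.6%) and CCAAT in 10 (28.6%, against 37.4%). The palindrome of NRF1 was in 1, that of Ndufa11 (2.86%, against 0.971%). YY1, GABP and NRF1 are textbook regulators of nuclear genes of oxidative phosphorylation. The 7 members with AAGATGGC had a median difference from shControl of -0.55 and -0.31 in shCSB/shNDN, against -0.50 and -0.47 for the 26 without it, so members with the letters lie within the range of the others. A match of letters is a description of the window and not a bound site.

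The other genes of complex I and of its surroundings were followed through fixed lists. The 7 mitochondrially encoded complex I genes had a median change of -1.12 in shCSB/shNDN against shControl, with 0 past the adjusted threshold. At an unadjusted p under 0.05, 3 were lower and 0 higher, where 6.71% of all genes were in each direction. The gene mt-Nd3, a small membrane subunit, had 65.8 and 62.5 FPKM in shCSB/shNDN, 126 and 128 FPKM in shCSB and 129.5 and 138 FPKM in shControl, a change of -1.05 ± 0.17 against shControl with an adjusted p of 0.140 in limma. Both shCSB/shNDN libraries were low for it. mt-Nd4 had 3327 and 106 FPKM in shCSB/shNDN, 3138 and 4557 FPKM in shCSB and 5396 and 5015 FPKM in shControl, and mt-Nd1 had 5922 and 978 FPKM, 6364 and 10117 FPKM, and 9924 and 9723 FPKM in the same groups. For these 2 genes the low value is that of shCSB/shNDN library 2 above all. The sum over the 7 was 67.0% and 11.5% of the shControl mean in shCSB/shNDN and 63.9% and 105% in shCSB. The nuclear-encoded subunits followed another order, since shCSB library 2 had the lower nuclear sum (79.8%) and the higher mitochondrial sum (105%).

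Assembly factors put the enzyme together and are not part of it. Over the 17 tested of 18 listed, the median change of shCSB/shNDN against shControl was -0.26, with 0 past the threshold. At an unadjusted p under 0.05, 3 were lower and 0 higher, where 6.71% of all genes were in each direction. The smallest p was that of Ecsit, at -0.71 ± 0.18 with an adjusted p of 0.256 in limma, and it had 14.0 and 11.97 FPKM in shCSB/shNDN, 22.8 and 18.8 FPKM in shCSB and 23.0 and 20.6 FPKM in shControl. Ndufaf1 at -0.51 ± 0.18 and Ndufaf6 at -0.44 ± 0.18 came next. By library their median differences were -0.35 and 0.07 in shCSB/shNDN and 0.06 and -0.19 in shCSB.

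For the 39 genes of complexes II to V, the median change of shCSB/shNDN against shControl was -0.43, with 25 lower and 0 higher where the groups do not overlap (23.7% and 20.7% of all genes), 13 lower at an unadjusted p under 0.05 (6.71% of all genes) and 0 past the threshold. Cox7b, a subunit of cytochrome c oxidase, had 79.5 and 53.0 FPKM in shCSB/shNDN, 136 and 98.6 FPKM in shCSB and 129 and 144 FPKM in shControl, a change of -1.06 ± 0.27 with an adjusted p of 0.261 in limma. The 10 regulators tested of 11 listed of mitochondrial genes had a median of 0.20. At an unadjusted p under 0.05 there were 0 in either direction, where 6.71% of all genes were in each. Gabpa, the DNA-binding subunit of GABP, was at 0.37 ± 0.16. Genes of mitochondrial mass, 10 in all and covering outer membrane, matrix and mtDNA maintenance, had a median of -0.05, made up of median differences of -0.19 and 0.01 in the 2 shCSB/shNDN libraries, with citrate synthase (Cs) at 37.8 and 22.8 FPKM in shCSB/shNDN, 40.7 and 39.1 FPKM in shCSB and 42.0 and 44.9 FPKM in shControl. The summed FPKM of the mass genes was 382 and 404 in shCSB/shNDN, 477 and 407 in shCSB and 454 and 465 in shControl.

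**Figure D4:**
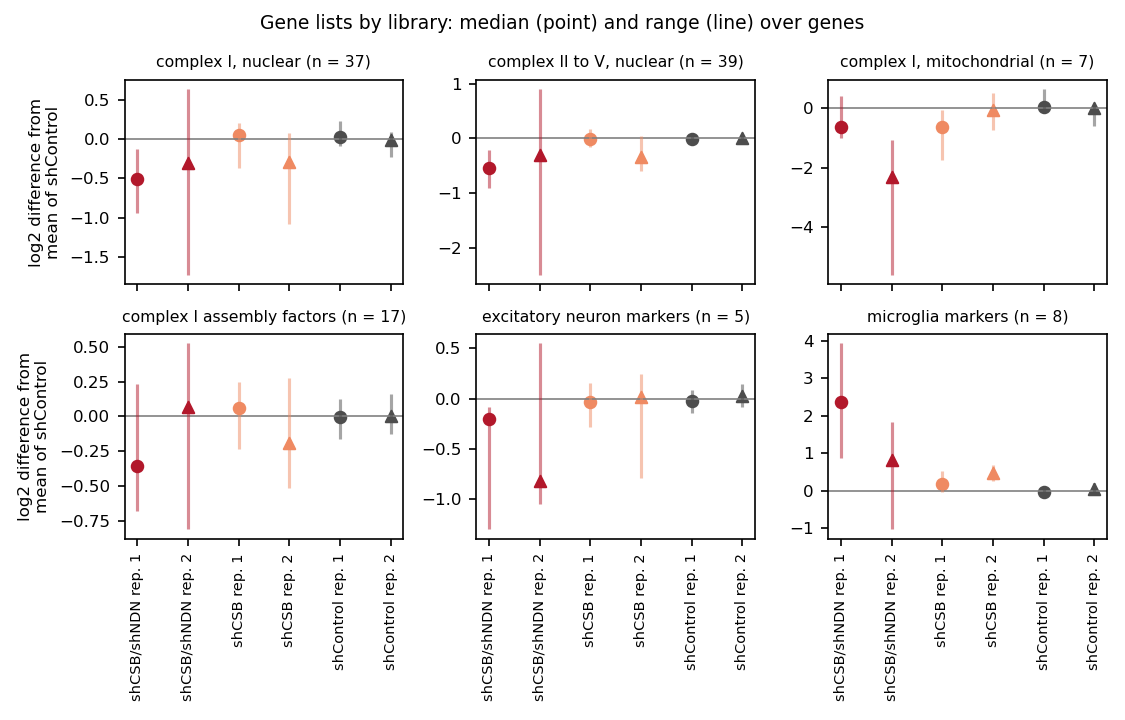
Difference from the mean of shControl (log2(FPKM + 1), vertical axis) by library for 4 lists of mitochondrial genes and the markers of excitatory neurons and of microglia, with the median as a point and the range over genes as a line; each panel has its own scale. The nuclear-encoded genes of complex I and of complexes II to V have a short, low line in shCSB/shNDN library 1 and a long one in library 2, and the 7 mitochondrially encoded genes have medians of -0.64 and -2.30 in these libraries.

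Ndufb1, a subunit of the distal arm, is present in the table only as Ndufb1-ps with a noncoding biotype and is therefore not among the 37. That entry had 12.8 and 11.9 FPKM in shCSB/shNDN, 23.2 and 15.2 FPKM in shCSB and 17.6 and 25.5 FPKM in shControl, the shCSB/shNDN libraries being the 2 lowest.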

How the data were processed

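Total RNA of mouse V1 was made into stranded libraries, as the labels' protocols describe. The authors deposited 1 table of FPKM values, per the labels and the submitters' processing notes, which list HISAT2 2.0.4, FastQC and the build GRCm39. How reads were counted, with or without strand and on which annotation, is not given in the sources used here. Positions in the table equal GENCODE M21 (GRCm38) for 98.3% of shared identifiers and for 33 of the 37 members, so coordinates are given on GRCm38. FPKM times gene length came out as whole reads for 100% of values (within 0.01 of a read). 54532 entries gave 54429 genes after 27 symbols turned into dates were restored and entries of 100 repeated symbols were summed.

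Genes with at least 0.5 FPKM in at least 2 of the 6 libraries were tested with limma 3.58.1 in R 4.3.3 on log2(FPKM + 1), with a mean-variance trend and all 6 libraries in 1 fit. Fold changes on that scale understate the change of low genes. Adjusted p is Benjamini-Hochberg over all genes tested. With 2 against 2 libraries, a permutation test cannot go below 0.333, and p values measure the spread between these libraries. Recovered reads were fitted with limma-voom as an alternative, which called 0 genes for shCSB against shControl and for shCSB/shNDN against shCSB, and 6 genes in shCSB/shNDN against shControl, no member among them. Copies were found with BLAST 2.17.0, and promoters are those of RefSeq. The fit was tested on simulated data. The members and the lists were chosen with earlier results of these data known. The values of 1 member are not reported here, though it is counted in all sums, counts and medians. Members with fitted changes were the core genes, the 2 highest and the 2 lowest by mean FPKM and up to 5 per direction and comparison with the smallest p, and up to 3 genes by the same measure were named from each other list. Members named with values by library only were chosen after their values were seen.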

Additional observations from a re-analysis of the deposited data

How the results depend on the processing

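Leaving out each library in turn, the members' median log2 change ran from -0.51 to -0.31 for shCSB/shNDN against shControl, from -0.47 to -0.089 for shCSB/shNDN against shCSB and from -0.29 to 0.050 for shCSB against shControl. Members past the adjusted threshold ran from 0 to 6, from 0 to 2 and from 0 to 0 in the same order (1808 of all genes passed against shControl without shCSB/shNDN replicate 1 and 628 without replicate 2). Members lower with no overlap ran from 25 to 36, from 13 to 31 and from 8 to 35, and members higher from 0 to 11, from 0 to 10 and from 0 to 16. The share of all genes lower with no overlap ran from 23.7% to 42.7%, from 18.4% to 41.2% and from 18.1% to 38% over the same fits. That of genes higher ran from 20.7% to 41.2%, from 16.5% to 39% and from 18.3% to 37.8%. These shares rise where a compared group is left with 1 library, so the counts of members are not comparable between fits. For shCSB/shNDN against shControl, 11 of the 37 members turned sign without 1 of the libraries, and among the members named with fitted changes these ran from -0.30 to 0.61 (Ndufa2), -0.13 to 0.57 (Ndufb11), -0.39 to 0.63 (Ndufc2), -0.35 to 0.095 (Ndufs1), -0.26 to 0.32 (Ndufs3), -0.61 to 0.20 (Ndufs7), -0.31 to 0.41 (Ndufv1). For shCSB/shNDN against shCSB, 15 of the 37 members turned sign without 1 of the libraries, and among the members named with fitted changes these ran from -0.20 to 0.70 (Ndufa2), -0.50 to 0.023 (Ndufab1), -0.075 to 0.63 (Ndufb11), -0.41 to 0.61 (Ndufc2), -0.26 to 0.33 (Ndufs3), -0.61 to 0.20 (Ndufs7), -0.24 to 0.48 (Ndufv1). For shCSB against shControl, 27 of the 37 members turned sign without 1 of the libraries, and among the members named with fitted changes these ran from -0.28 to 0.084 (Ndufa2), -0.43 to 0.038 (Ndufa4), -0.50 to 0.015 (Ndufab1), -0.44 to 0.023 (Ndufb10), -0.26 to 0.075 (Ndufb2), -0.0048 to 0.040 (Ndufc2), -0.11 to 0.10 (Ndufs3), -0.18 to 0.19 (Ndufs7), -0.20 to 0.072 (Ndufv1), -0.31 to 0.10 (Ndufv2). For shCSB against shControl, trimmed-mean scaling gave 18 members lower with no overlap in place of 8, but it also moved the median of all genes to -0.07 and the share of all genes lower with no overlap to 28.5% in place of 18.1%, and scaling without mitochondrially encoded genes gave 1 higher in place of 0. Quantile normalization turned Ndufs3 to 0.10, Ndufv1 to 0.074, Ndufa2 to 0.036 and Ndufv2 to 0.028 there, trimmed-mean scaling turned Ndufs7 to -0.082 and Ndufc2 to -0.070, scaling without mitochondrially encoded genes turned Ndufs7 to -0.0027, and limma-voom turned Ndufs3 to 0.078 and Ndufv1 to 0.019. For shCSB/shNDN against shControl, trimmed-mean scaling turned Ndufs3 to -0.076 and Ndufv1 to -0.053, and scaling without mitochondrially encoded genes turned them to -0.023 and -7.49e-05. That scaling turned Ndufs3 to -0.0067 against shCSB. The cause was not tested in any of these. With the replicate number as a block, the medians stayed at -0.45, -0.27 and -0.14 and 0 members passed the threshold (of all genes, 3 passed in shCSB/shNDN against shControl in place of 1), while same-numbered libraries deviated together with correlations of 0.054, -0.016 and -0.071 over all genes, so the numbers were not taken as pairs. The pseudocount of 0.1, both other filters, the fit of the 4 libraries compared, and the medians without Ndufa4 or without members with a copy (the last chosen after seeing the data) kept the sign of the members' medians and 0 members past the adjusted threshold. Members lower at an unadjusted p under 0.05 moved more: against 13 for shCSB/shNDN against shControl there were 3 with quantile normalization, 7 with limma-voom, 19 with trimmed-mean scaling, 18 with scaling without mitochondrially encoded genes and 0 without either shControl library. Of all 16254 genes, 2180 had such a p in either direction in the main fit. The same count was 2077 with quantile normalization, 2256 with limma-voom, 2494 with trimmed-mean scaling and 2295 without mitochondrially encoded genes. Against 1 for shCSB/shNDN against shCSB there were 0 to 6 over the alternatives that keep both libraries of each group compared. All genes in either direction numbered 849 to 1784 there, against 1371 in the main fit. Against 0 for shCSB against shControl there were 0 or 1.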
